A study of Mus musculus with 24 samples.

Results

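The proteasome genes were followed in newly made RNA of mouse embryonic stem cells that lacked Alkbh5 or a part of it. They were taken by name: every protein-coding line of the deposited gene table whose symbol starts with Psma to Psmg followed by a number, without pseudogenes, which gave 50 genes of 56941 gene lines. The rule uses the names alone. The name rule also took Psmc3ip, which codes for a meiotic recombination factor named after its binding to a proteasome subunit, so 49 of the 50 genes code for proteasome parts, their assembly factors or their regulators. Of the 50 genes, 46 passed the filter on low levels and were tested. Psmb8, Psmb9, Psmb11 and Psme2b did not pass.

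The cells were of the E14TG2a line, a mouse embryonic stem cell line, kept in medium with serum, LIF, PD0325901 and CHIR99021. EU, a uridine analog that is built into growing RNA, was added at 1 mM. Cells were collected after 10, 20, 40 or 60 min, and RNA carrying EU was pulled out and sequenced. The genotypes were Alkbh5 del-cIDR (called dcIDR here), in which ALKBH5 lacks its C-terminal disordered region, Alkbh5 KO and WT, and the 3 genotypes and 4 times made 12 groups of 2 libraries. ALKBH5 removes the N6-methyl mark from adenosines in RNA. The labels name a single line per genotype, and nothing says whether libraries of a group came from separate cultures, so p-values measure the spread between these libraries, which may be technical.

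The 26S proteasome degrades proteins that carry ubiquitin chains. Its 20S core is a barrel of alpha and beta rings with the cutting sites inside, and the 19S cap recognises the substrate, removes ubiquitin and unfolds it with a ring of ATPases at its base. Assembly needs dedicated chaperones, and other caps such as PA28 and PA200 can take the place of the 19S. The subunits occur in fixed ratios in the particle, and their genes are known to be raised together by the transcription factor NFE2L1 when the proteasome is inhibited.

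Libraries held 3133126 to 22158292 gene reads and 6037 to 23382 reads of the Drosophila spike-in RNA, and 26810 to 34172 genes had reads. Proteasome genes took 0.369 to 0.462% of gene reads in each library. All 10 embryonic stem cell markers passed the filter with mean levels over 100, of which 1 was higher and 2 were lower in dcIDR than in WT, and 1 was higher and 4 were lower in KO. Of the 4 neural markers 2 were lower in dcIDR and 3 higher in KO. Of the tested endoderm markers 1 of 4 was lower in each mutant, as was 1 of 3 fibroblast markers, and 1 of 2 immune markers was lower in KO. Foxa2, Col1a2, Postn and Ptprc were too low to test. The summed level of the 4 neural markers ran from 423.2 to 3025 in dcIDR, from 1932 to 8235 in KO and from 722.9 to 4208 in WT libraries, and the part of any of these markers in the results below was not tested. Alkbh5 itself was lower than in WT by 0.46 ± 0.06 in dcIDR and by 0.60 ± 0.06 in KO (log2, SE; limma, adjusted p = 0.000212 and 1.22e-05), but reads over the whole gene do not check the deletions. With spike-in scaling it was at -0.29 in both, and neither passed the test (limma, adjusted p = 0.345 in dcIDR and 0.206 in KO).

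Relative to the median gene, most proteasome genes had estimates close to WT in both mutants, and those that passed the test were few and did not include any of the 14 constitutive 20S subunits when dcIDR or KO was set against WT. In dcIDR, 3 of the 6 base ATPases of the 19S cap, Psmc1, Psmc3 and Psmc5, fell together by 0.30 to 0.35 on the log2 scale. With spike-in scaling none of these ATPases passed the test, and with no filter Psmc3 and Psmc5 missed the threshold. The assembly chaperone Psmd10 rose by 0.58 in dcIDR. In KO the lid subunit Psmd7 rose by 0.47 and the activator Psme4 by 0.24. Their 40 nearest tested genes had medians of 0.40 and 0.46 in KO, and those of Psmd10 had 0.54 in dcIDR. Level means reads scaled to 11714 spike-in reads. Differences are in log2(level + 1) after the median over tested genes was taken off in each library, as the mean over the 4 labelling times.

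Promoter sequences are shown for 4 of these genes: Psmc1 and Psmc5, because they fell together in dcIDR, Psmd10, because it rose there, and Psme4, because it rose in KO. They are RefSeq windows of the build GRCm38.p6 from 250 bases before to 50 after the start, written 5′ to 3′ on the strand of the gene, at chr12:100109952-100110251 (plus strand), chr11:106255935-106256234 (plus strand), chrX:140956662-140956961 (minus strand) and chr11:30771525-30771824 (plus strand). Psmc3 and Psmd7 are named only. Capitals mark matches on either strand to 5 words: TGACNNNGC and TGAGNNNGC (antioxidant response element, to which NFE2L1 and NFE2L2 bind), CCAAT, known as a box bound by NF-Y, the GC box GGGCGG, and, as the core of ETS factor sites, CCGGAAG. In Psme4 the matches to the GC box and the ETS core overlap by 1 base.
Psmc1: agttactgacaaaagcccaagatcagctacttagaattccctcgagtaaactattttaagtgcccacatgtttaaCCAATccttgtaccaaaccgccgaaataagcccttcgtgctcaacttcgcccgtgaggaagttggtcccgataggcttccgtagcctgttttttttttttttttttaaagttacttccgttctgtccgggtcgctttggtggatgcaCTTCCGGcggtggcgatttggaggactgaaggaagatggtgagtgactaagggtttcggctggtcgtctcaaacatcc
Psmc5: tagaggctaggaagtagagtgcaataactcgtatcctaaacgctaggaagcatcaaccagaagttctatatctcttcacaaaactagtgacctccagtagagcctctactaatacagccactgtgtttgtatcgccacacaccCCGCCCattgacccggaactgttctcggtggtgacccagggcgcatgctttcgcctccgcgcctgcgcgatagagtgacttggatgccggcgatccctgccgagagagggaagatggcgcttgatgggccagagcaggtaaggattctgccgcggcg
Psmd10: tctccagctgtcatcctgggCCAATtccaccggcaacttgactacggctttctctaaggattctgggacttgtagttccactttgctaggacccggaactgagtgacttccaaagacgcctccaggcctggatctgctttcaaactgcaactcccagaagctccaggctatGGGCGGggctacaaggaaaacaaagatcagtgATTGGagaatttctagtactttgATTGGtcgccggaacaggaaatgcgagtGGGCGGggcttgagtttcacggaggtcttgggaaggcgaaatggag
Psme4: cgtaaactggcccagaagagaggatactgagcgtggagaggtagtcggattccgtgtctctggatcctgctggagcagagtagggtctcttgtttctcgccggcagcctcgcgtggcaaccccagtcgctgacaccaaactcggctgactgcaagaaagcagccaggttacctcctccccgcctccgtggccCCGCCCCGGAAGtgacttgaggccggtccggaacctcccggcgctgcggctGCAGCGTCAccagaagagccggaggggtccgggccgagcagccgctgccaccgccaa

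Psmc1 held a CCAAT match and an ETS core, Psmc5 a single GC box, Psmd10 CCAAT matches and GC boxes, and Psme4 a GC box, an ETS core and a match to TGACNNNGC. RefSeq windows were given for 42 of the 50 genes, 45 windows in all. The ETS core was in 35.6% of the 45 windows and in 8.86% of all 32851 promoter windows of the same length. The GC box was in 53.3% and 35.7%, TGAGNNNGC in 31.1% and 17.6%, TGACNNNGC in 13.3% and 12.4%, and CCAAT in 33.3% and 37.4%. The words were chosen after these promoters had been looked at, and a match is a run of letters, not a shown binding site.

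In dcIDR against WT, 5 of 46 tested proteasome genes (10.9%) passed an adjusted p of 0.05, where 25.1% of all 22448 tested genes did. In KO against WT, 4 of 46 (8.7%) passed, where 30.1% of all tested genes did. Among the 12402 tested genes whose mean level reached 100, to which all tested members but Psmb10 belong, 30.8% passed in dcIDR and 37.3% in KO. The median difference of the members was -0.01 in dcIDR and -0.0014 in KO, against -0.02 and -0.01 over all tested genes. Of the 46 members, 37 (80.4%) lay within 0.2 of 0 in dcIDR and 40 (87.0%) in KO, against 55.2% and 51.7% of all tested genes and 67.8% and 62.5% of those whose mean level reached 100. With the deposited spike-in scaling, 28 members (60.9%) in dcIDR and 7 (15.2%) in KO lay within 0.2 of 0, against 46.4% and 26.5% of all tested genes, and the member median was 0.16 in dcIDR and 0.31 in KO. The median SE of a difference from WT was 0.0752 for the members, 0.11 for all tested genes and 0.07 for those whose mean level reached 100.

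The split of these calls depended on the scale. Relative to the median gene, 1 member was higher and 4 were lower in dcIDR, where 10.4% of all tested genes were higher and 14.7% lower. In KO 2 were higher and 2 lower, where 14.6% and 15.5% were. On the spike-in scale of the deposited table the median gene was higher than in WT by 0.15 in dcIDR and by 0.30 in KO, and 1 member was called higher and 0 lower in dcIDR, where 7.92% of all tested genes were called, 5.69% higher and 2.23% lower. In KO 6 members were called higher and 0 lower on that scale, where 24.5% were called, 21.9% higher and 2.63% lower. Those members were Psmd10 in dcIDR and Psmd7, Psme4, Psmb10, Psmd6, Psme1 and Psme2 in KO. Quantile normalization gave 4 higher and 3 lower in dcIDR, and 2 higher and 2 lower in KO, but the share of all tested genes with it is not given.

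**Figure D1:**
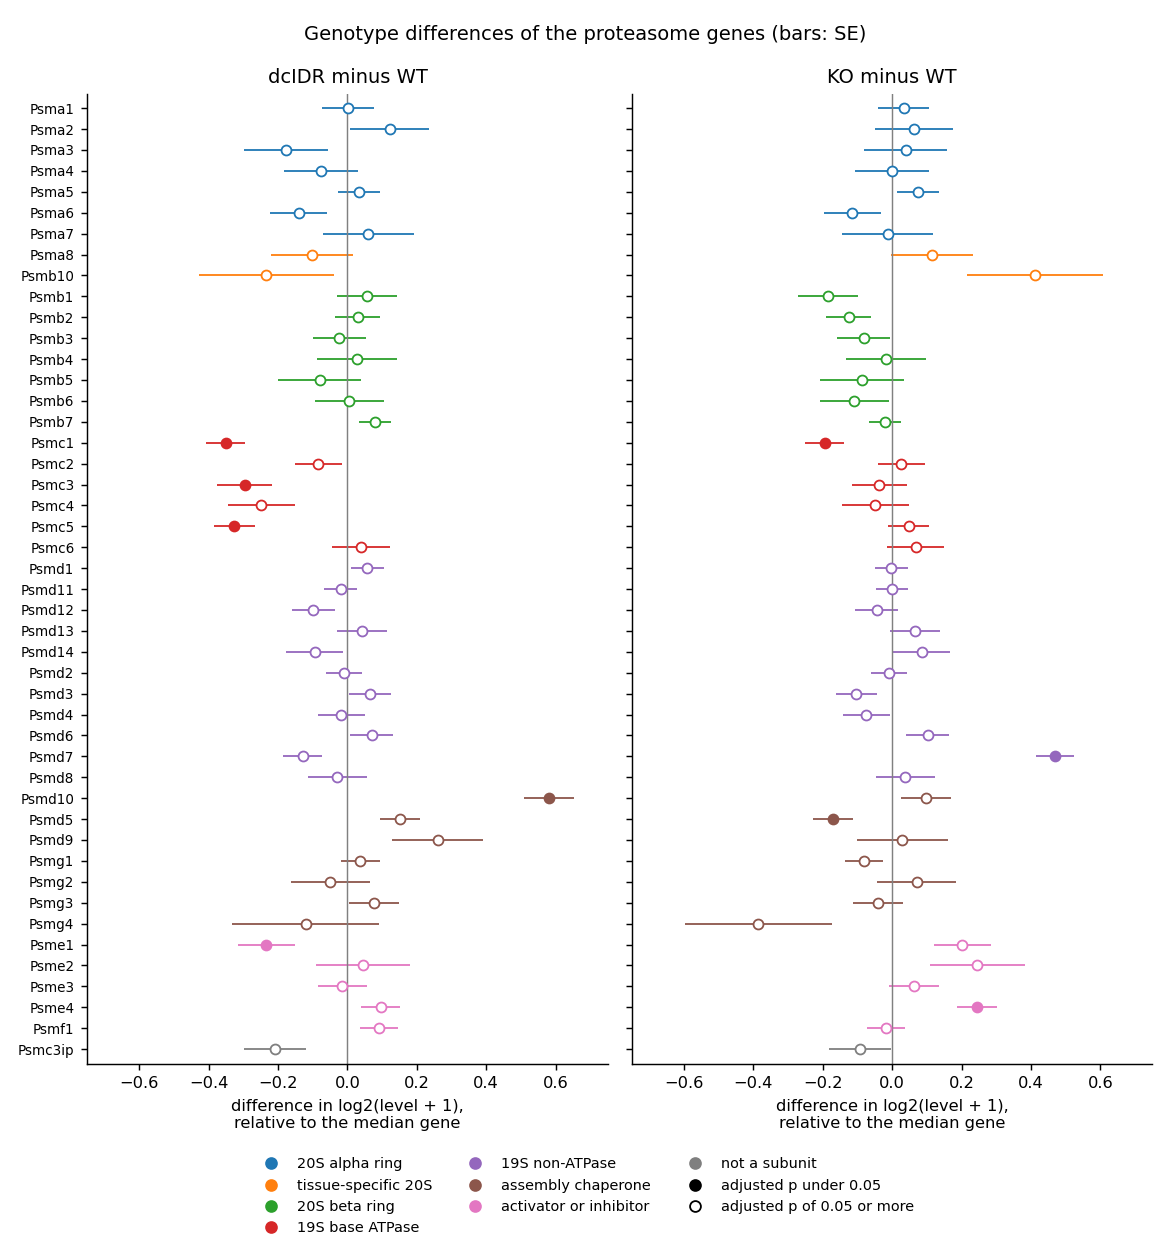
Difference from WT in log2(level + 1), relative to the median gene, for each of the 46 tested proteasome genes in dcIDR (left) and KO (right), with bars of 1 SE and colours for the role in the particle. Filled points passed an adjusted p of 0.05 in limma: Psmc1, Psmc3, Psmc5, Psme1 and Psmd10 in dcIDR, and Psmd7, Psme4, Psmc1 and Psmd5 in KO.

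Estimates for the 20S core lay close to WT relative to the median gene. Its alpha ring, the 7 gate-forming subunits Psma1 to Psma7, ranged from -0.18 (Psma3) to 0.12 (Psma2) in dcIDR and from -0.11 (Psma6) to 0.08 (Psma5) in KO, and none of the 7 passed the test in either comparison. With spike-in scaling the alpha ring had medians of 0.17 in dcIDR and 0.34 in KO, and none of its genes passed. The beta ring, Psmb1 to Psmb7, ranged from -0.08 to 0.08 in dcIDR and from -0.18 to -0.02 in KO, relative to the median gene. In KO each of the 7 beta estimates was below 0 relative to the median gene, with a median of -0.09, and each was above 0 with spike-in scaling, with a median of 0.22. None passed the test on either scale, the nearest relative to the median gene being Psmb1 at -0.18 ± 0.09 (SE, limma, adjusted p = 0.13).

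The catalytic subunits gave the same picture by library. Psmb5, the chymotrypsin-like subunit, had relative log2 values with a lowest of 0.14, a median of 0.36 and a highest of 0.87 in dcIDR, of 0.10, 0.44 and 0.83 in KO and of 0.21, 0.52 and 1.02 in WT. Psmb6, the caspase-like subunit, had 3.30, 3.57 and 4.01 in dcIDR, 3.11, 3.53 and 3.92 in KO and 3.37, 3.49 and 4.08 in WT. Psmb7, the trypsin-like subunit, had 2.66, 2.75 and 2.86 in dcIDR, 2.49, 2.66 and 2.82 in KO and 2.57, 2.65 and 2.80 in WT. For each of these genes the genotypes overlapped over most of their range. The differences were -0.08, 0.01 and 0.08 in dcIDR and -0.09, -0.11 and -0.02 in KO for Psmb5, Psmb6 and Psmb7, with SEs of 0.12, 0.10 and 0.05, and none passed the test.

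Of the subunits that replace others in certain tissues, Psmb8, Psmb9 and Psmb11 were too low to test. Psmb8, a subunit of the immunoproteasome that interferon induces, had 0 to 4 reads per library. Reads were present in 6 of 24 libraries, none of them KO, too few to compare genotypes. Psmb9, another of them, had 0 to 21 reads, and Psmb11, the thymus-specific subunit, 0 to 16. Psmb10, the immunoproteasome subunit that takes the place of Psmb7, had 10 to 83 reads in dcIDR, 23 to 126 in KO and 23 to 94 in WT libraries. Psma8, the alpha subunit known from testis, had a mean level of 210.9 and passed the test in none of the comparisons.

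Psmb10 differed from WT by -0.23 ± 0.20 in dcIDR and by 0.41 ± 0.20 in KO, with adjusted p-values of 0.42 and 0.13 (limma). It was lower in dcIDR than in KO by 0.65 ± 0.20 (limma, adjusted p = 0.0155). In that comparison its 40 nearest tested genes had a median of -0.44, with 30 called lower, and chromosome 8 had a median of -0.46. Among 8 genes of antigen processing and interferon response, 7 were tested, of which 1 was called higher and 1 lower in each mutant, beside 25.1% of all tested genes called in dcIDR and 30.1% in KO. With spike-in scaling 1 was called higher and 0 lower in each, beside 7.92% of all tested genes called in dcIDR and 24.5% in KO. In dcIDR, Tap1, a subunit of the peptide transporter, rose by 0.48 (limma, adjusted p = 0.00349). In KO, Irf1, an interferon-induced transcription factor, rose by 0.67 (limma, adjusted p = 0.000276) and Tap1 fell by 0.58 (limma, adjusted p = 0.000669), a call that was lost with spike-in scaling (-0.27, limma, adjusted p = 0.259). Genome neighbours of Irf1 and Tap1 were not examined.

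The base ATPases were the part of the particle with the most members lower in dcIDR. Their 6 estimates had a median of -0.27 in dcIDR and of -0.0047 in KO, and 3 of 6 fell in dcIDR, while 14.7% of all tested genes were called lower there. Psmc1 (RPT2, ENSMUSG00000021178, chromosome 12) had relative log2 values with a lowest of 3.50, a median of 3.64 and a highest of 3.78 in dcIDR, of 3.69, 3.79 and 3.92 in KO and of 3.79, 4.01 and 4.05 in WT. All 8 dcIDR libraries lay below every WT value, and 4 of 8 KO libraries did. The difference from WT was -0.35 ± 0.06 in dcIDR, a ratio of 0.784 (limma, adjusted p = 0.000579). It was -0.19 ± 0.06 in KO, a ratio of 0.874 (limma, adjusted p = 0.0182), and turned to 0.11 on the spike-in scale (limma, adjusted p = 0.56). Both comparisons use the same WT libraries.

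Psmc5 (RPT6, chromosome 11) had 2.99, 3.24 and 3.57 as lowest, median and highest in dcIDR, 3.41, 3.64 and 3.86 in KO and 3.42, 3.64 and 3.69 in WT. In dcIDR 7 of 8 libraries lay below every WT value, and at each of the 4 times both dcIDR libraries were below WT. The difference was -0.33 ± 0.06 in dcIDR (limma, adjusted p = 0.00148) and 0.05 ± 0.06 in KO (limma, adjusted p = 0.60). Psmc3 (RPT5, chromosome 2) had 3.29, 3.55 and 3.89 in dcIDR, 3.67, 3.80 and 4.12 in KO and 3.67, 3.89 and 4.04 in WT. Its dcIDR libraries were below WT at all 4 times, and the difference was -0.30 ± 0.08 in dcIDR (limma, adjusted p = 0.0148) and -0.04 ± 0.08 in KO (limma, adjusted p = 0.77).

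Estimates for these ATPases were below 0 at every labelling time, and single times were not tested. In order of labelling time, Psmc1 in dcIDR was -0.25, -0.37, -0.45 and -0.33 from WT. Psmc5 was -0.23, -0.55, -0.37 and -0.16, and Psmc3 -0.25, -0.41, -0.41 and -0.12. The SEs at 60 min were 0.13 for Psmc1, 0.14 for Psmc5 and 0.18 for Psmc3, so the 60 min values of Psmc5 and Psmc3 were close to 1 SE from 0 or within it. Psmc4 (RPT3) missed the threshold at -0.25 ± 0.10 (limma, adjusted p = 0.0756), and Psmc2 (RPT1) and Psmc6 (RPT4) had -0.08 ± 0.07 and 0.04 ± 0.08. On the spike-in scale Psmc1, Psmc5 and Psmc3 had -0.18, -0.16 and -0.13 in dcIDR and none passed the test (limma, adjusted p = 0.51, 0.57 and 0.66), so the fall is one relative to the median gene.

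**Figure D2:**
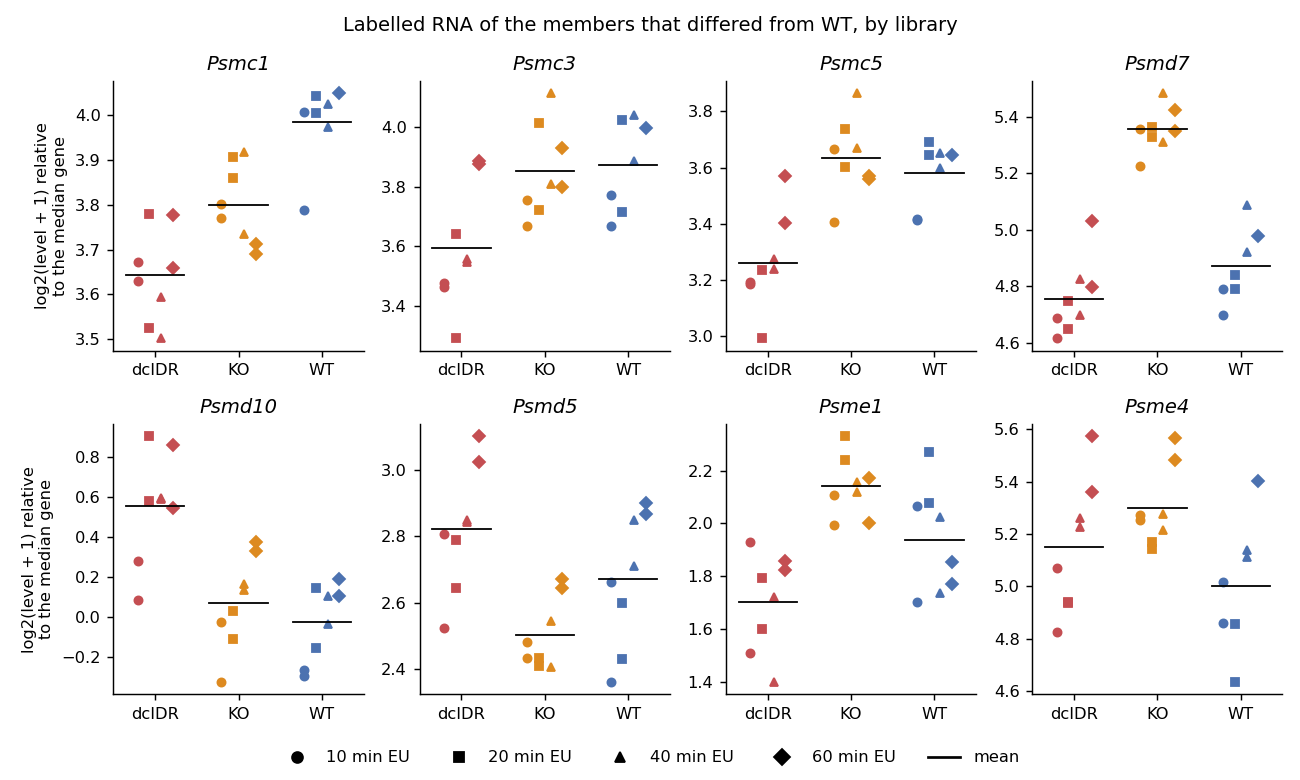
Relative log2(level + 1) of the 8 members that differed from WT, 1 point per library, in dcIDR, KO and WT from left to right, with symbols for the labelling time and a line at the mean. Where the reads of the 2 WT libraries at 60 min could not be split, their mean is 1 point. Psmc1 is below every WT value in all 8 dcIDR libraries, and Psmd7 is above every WT value in all 8 KO libraries.

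The name rule took 11 non-ATPase subunits of the 19S cap, from its lid and the rest of its base. None of them passed the test in dcIDR and only Psmd7 did in KO. Sem1, a lid subunit outside the name rule, passed in KO and is given with the partner genes below. Psmd7 (RPN8, ENSMUSG00000039067, chromosome 8), the partner of the deubiquitinase Psmd14, had relative log2 values of 4.62, 4.72 and 5.03 (lowest, median and highest) in dcIDR, 5.23, 5.35 and 5.48 in KO and 4.70, 4.84 and 5.09 in WT. No KO library overlapped WT. At 60 min its level was 9291 and 9109 in the KO libraries, against a mean of 5546 in WT, where the split between libraries was unclear. The difference was -0.13 ± 0.06 in dcIDR (limma, adjusted p = 0.11) and 0.47 ± 0.06 in KO, a ratio of 1.39 (limma, adjusted p = 3.13e-05). Psmd14 itself, which with Psmd7 forms the deubiquitinating centre, was at -0.09 ± 0.08 in dcIDR and 0.09 ± 0.08 in KO. The others of the 11 ranged from -0.10 (Psmd12) to 0.07 (Psmd6) in dcIDR and from -0.10 (Psmd3) to 0.10 (Psmd6) in KO.

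Among the 7 assembly chaperones 1 rose in dcIDR and 1 fell in KO. Psmd10 (gankyrin, ENSMUSG00000031429, chromosome X), a chaperone of base assembly, had 0.08, 0.59 and 0.90 as lowest, median and highest relative log2 value in dcIDR, -0.32, 0.08 and 0.37 in KO and -0.29, 0.03 and 0.19 in WT. In dcIDR 7 of 8 libraries were above every WT value, and both libraries of each time were above WT at that time. At 60 min its level was 231.0 and 382.5 in the dcIDR libraries, 285.3 and 273.7 in KO and 171.1 and 215.3 in WT. The difference was 0.58 ± 0.07 in dcIDR (limma, adjusted p = 6.5e-05) and 0.10 ± 0.07 in KO (limma, adjusted p = 0.35).

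Psmd5 (S5B), another base chaperone, had 2.52, 2.83 and 3.10 in dcIDR, 2.41, 2.46 and 2.67 in KO and 2.36, 2.69 and 2.90 in WT, and the genotypes overlapped. The difference was 0.15 ± 0.06 in dcIDR (limma, adjusted p = 0.0745) and -0.17 ± 0.06 in KO (limma, adjusted p = 0.0404). With spike-in scaling the KO value turned to 0.14 (limma, adjusted p = 0.50). The KO value passed the test in 8 of the 24 fits that each left out 1 library and missed it in 16, with adjusted p-values of up to 0.0955. Psmd9, which also guides the base, was at 0.26 ± 0.13 in dcIDR and 0.03 ± 0.13 in KO. The chaperones of the 20S core, Psmg1 to Psmg4, passed in no comparison. The largest estimate among them was -0.39 ± 0.21 for Psmg4 in KO.

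Of the 5 tested activators and inhibitors, Psme4 passed in KO and Psme1 in dcIDR. Psme4 (PA200, ENSMUSG00000040850, chromosome 11), a cap of the 20S core known from spermatogenesis and DNA repair, had 4.82, 5.15 and 5.57 in dcIDR, 5.14, 5.26 and 5.57 in KO and 4.64, 5.02 and 5.40 in WT. The ranges overlapped, but both KO libraries were above WT at each of the 4 times. The difference was 0.10 ± 0.06 in dcIDR (limma, adjusted p = 0.25) and 0.24 ± 0.06 in KO, a ratio of 1.19 (limma, adjusted p = 0.00531). Psme1, the PA28 alpha subunit, had 1.40, 1.76 and 1.93 in dcIDR, 2.00, 2.14 and 2.33 in KO and 1.70, 1.94 and 2.27 in WT. WT overlapped both mutants, while every dcIDR value lay below every KO value.

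Psme1 differed from WT by -0.23 ± 0.08 in dcIDR (limma, adjusted p = 0.0495) and by 0.20 ± 0.08 in KO (limma, adjusted p = 0.0763). The dcIDR value missed the threshold in 20 of 24 fits that each left out 1 library, with adjusted p-values of up to 0.12. Its partner Psme2, the PA28 beta subunit, was at 0.04 ± 0.14 in dcIDR and 0.25 ± 0.14 in KO. Psme2 and Psme2b are near-identical copies whose reads may have been split between them. Psme3, the nuclear PA28 gamma, and Psmf1, the inhibitor PI31, were at -0.02 and 0.09 in dcIDR and at 0.06 and -0.02 in KO, with SEs of 0.07 and 0.05. Psmc3ip, the gene that only the name links to the proteasome, was at -0.21 ± 0.09 in dcIDR and -0.09 ± 0.09 in KO and passed in neither.

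Psmd10, Psmd7 and Psme4, the members that rose, lay among genes of which many were called higher as well. Around the ATPases that fell, 5 to 8 of 40 neighbours were called lower, where 14.7% of all tested genes were. Neighbours are the 20 nearest tested genes on each side in the order of the GENCODE M21 annotation. Around Psmd10 the median of 40 neighbours was 0.54 in dcIDR and 25 of them were called higher, and the median of the 675 tested genes of the X chromosome was 0.26. Around Psmd7 the neighbours' median was 0.40 in KO with 28 of 40 called higher, and the median of the 1108 tested genes of chromosome 8 was 0.33. Around Psme4 it was 0.46 in KO with 20 of 40 called higher, against the gene's own 0.24, while the median of chromosome 11 was 0.0025. Around Psmb10, also on chromosome 8, it was 0.33 in KO.

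Around Psmc1 the neighbours' median in dcIDR was -0.13 with 8 of 40 called lower, against the gene's own -0.35, and the median of the 913 tested genes of chromosome 12 was -0.12. Around Psmc3 it was -0.05 with 5 of 40 called lower, and the median of chromosome 2 was 0.0041. Around Psmc5 it was 0.0016 with 7 of 40, and the median of chromosome 11 was -0.02. Around Psme1 it was -0.06 in dcIDR with 8 of 40 called lower, and around Psmd5 it was -0.06 in KO with 8 of 40 called lower. Whether the number of copies of these chromosomes or regions differed between the lines was not tested.

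**Figure D3:**
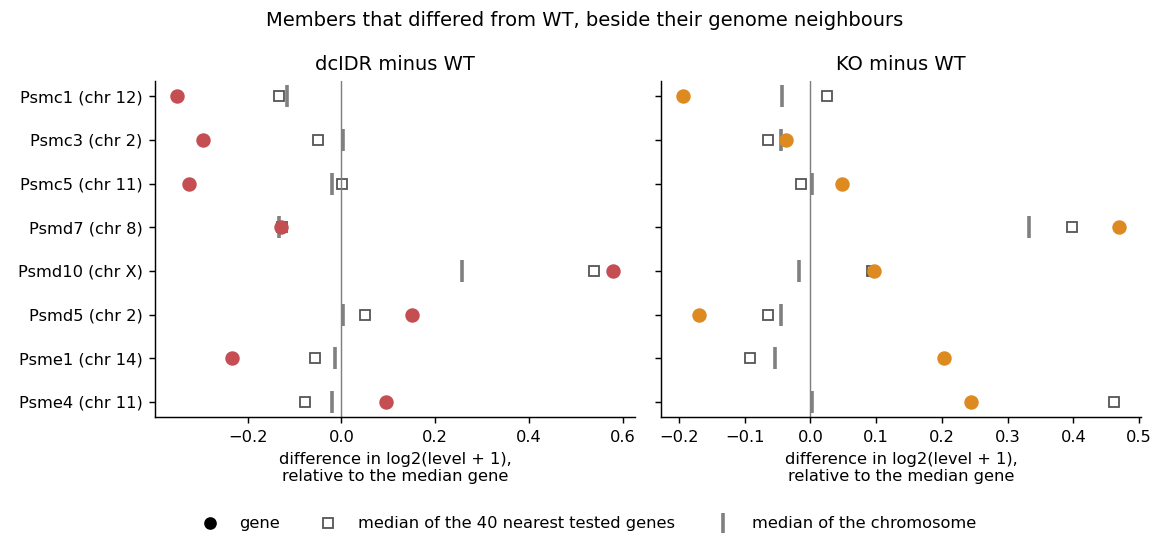
Difference from WT in dcIDR (left) and KO (right) of each of the 8 members that passed in either comparison (filled circle), beside the median of its 40 nearest tested genes (open square) and of its chromosome (bar). Psmd10 in dcIDR and Psmd7 in KO lie near the median of their neighbours, and Psmc3 and Psmc5 in dcIDR lie away from it. Psme4 in KO lies below the median of its neighbours.

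Set against each other, dcIDR and KO differed at 11 of the 46 members (23.9%), where 43.4% of all tested genes did. In dcIDR 7 were lower than in KO: Psmb10 by 0.65 on the log2 scale, Psmd7 by 0.60, Psme1 by 0.44, Psmc5 by 0.37, Psmc3 by 0.26, Psmc1 by 0.16 and Psme4 by 0.15. In dcIDR 4 were higher than in KO: Psmd10 by 0.48, Psmd5 by 0.32, Psmb1 by 0.24 and Psmd3 by 0.17. The neighbours' median was -0.44 for Psmb10, -0.50 for Psmd7 and -0.60 for Psme4, with 30, 27 and 28 of 40 called lower. It was -0.02 for Psme1, -0.03 for Psmc5, 0.03 for Psmc3 and -0.15 for Psmc1, with 6, 4, 3 and 12 called lower. For Psmd10, Psmd5, Psmb1 and Psmd3 it was 0.37, 0.17, 0.19 and -0.10, with 22, 13, 14 and 4 called higher. Relative log2 values of Psmd7 were 4.62 to 5.03 in dcIDR and 5.23 to 5.48 in KO, and did not overlap. Without the 10 min libraries Psmd3 turned to -0.0095. For Psme4, Psmb1, Psmc1 and Psmd3 the call was lost in 15, 11, 7 and 11 of 24 fits that each left out 1 library. All 6 base ATPases had estimates below 0 in this comparison, with a median of -0.18, and the comparisons share libraries. Of all tested genes 21% were higher and 22.4% lower in dcIDR. With spike-in scaling 0 members were higher and 5 lower, where 23.6% of all tested genes were called, 6.57% higher and 17% lower, and the median gene was lower in dcIDR by 0.13. Quantile normalization gave 7 higher and 5 lower, but the share of all tested genes with it is not given.

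The genotype difference of 1 member passed the test for a change with labelling time, a call that was lost in 20 of 24 fits that each left out 1 library, with spike-in scaling, with a pseudocount of 10, with no filter and without the 10 min libraries. Psmd3 (RPN3), a lid subunit, differed from WT in dcIDR by 0.59 at 10 min, by -0.22 at both 20 and 40 min and by 0.11 after 60 min (limma F test over 3 contrasts, adjusted p = 0.0461). That is 1 of 46 members, where 2.09% of all tested genes passed. Its relative log2 values at 10 min were 3.56 and 3.43 in dcIDR, against 2.98 and 2.84 in WT. In KO no member passed, where 0.00891% of all tested genes did, and 0 members had an unadjusted p under 0.05.

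Labelled RNA of every tested member grew with labelling time in each genotype. On the spike-in scale of the deposited table all 46 rose in dcIDR, in KO and in WT (limma, slope per doubling of minutes), where 97.2%, 90.5% and 95.5% of all tested genes rose. The median slope of the members was 1.07 in dcIDR, 0.62 in KO and 0.88 in WT, against 1.03, 0.65 and 0.84 over all tested genes. In bulk libraries, fewer cells and less labelled RNA per cell cannot be told apart.

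The deposited log2 ratios to 10 min give the shape of that increase. In dcIDR the median of the 46 members was 2.25 at 20 min, 2.85 at 40 min and 2.84 at 60 min, and that of all tested genes 2.26, 2.89 and 2.72. In KO it was 0.46, 1.18 and 1.60 for the members and 0.42, 1.20 and 1.67 for all tested genes. In WT it was 1.04, 2.10 and 2.18 for the members and 0.93, 2.01 and 2.09 for all tested genes. Gene reads per spike-in read at 10 min, to which the ratios refer, were 250.1 and 260.6 in the dcIDR libraries, 571.0 and 704.4 in KO and 438.3 and 333.7 in WT.

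**Figure D4:**
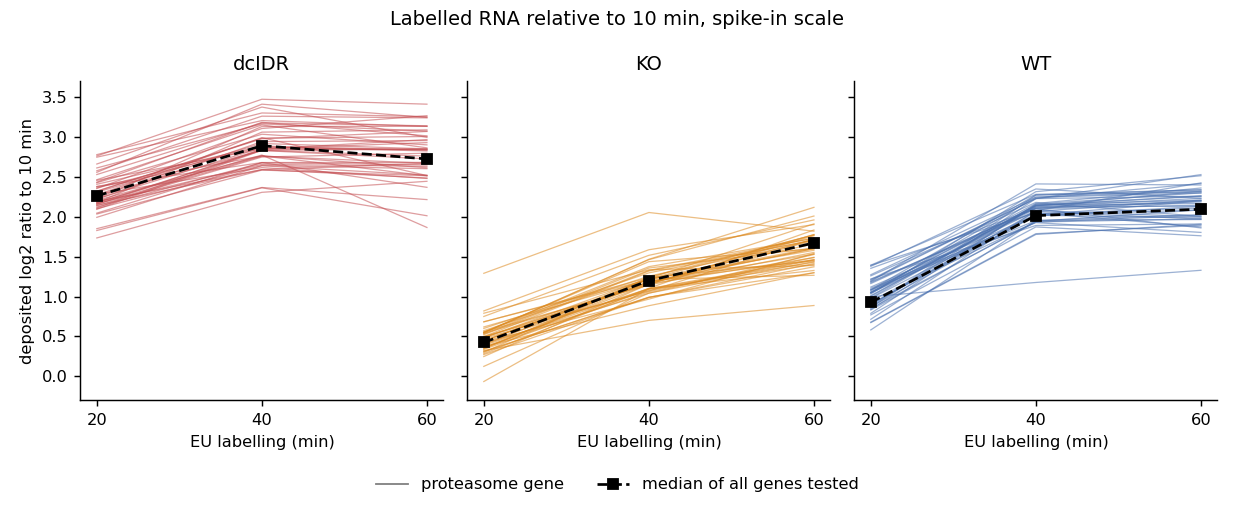
Deposited log2 ratio of each genotype at 20, 40 and 60 min to its own 10 min, spike-in scale, for each of the 46 tested proteasome genes (thin lines) and as the median of all tested genes (dashed line with squares). Member medians at 60 min are 2.84 in dcIDR, 1.60 in KO and 2.18 in WT, beside 2.72, 1.67 and 2.09 for all tested genes.

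These ranks are over the 46 tested members and were not tested. Some rest on few reads: Psmg4 had 97 and 20 in the KO libraries at 10 min, and Psmb10 had 10 to 126 per library. At 20 min in KO, Psmg4 had the highest deposited ratio, 1.29, and Psmg2 the lowest, -0.06. At 60 min Psmb10 had the lowest in each genotype, 1.87 in dcIDR, 0.89 in KO and 1.33 in WT. The highest at 60 min were Psmd6 in dcIDR with 3.41, Psmd10 in KO with 2.12 and Psmd14 in WT with 2.53.

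Relative to the median gene, 14 members increased further with time in dcIDR, 3 in KO and 9 in WT, where 29.1%, 17.8% and 24.3% of all tested genes did, and none decreased on that scale, where 13.8%, 6.66% and 9.41% of all tested genes did. In either direction 42.9%, 24.5% and 33.7% of all tested genes were called. This direction depends on the genes that set the scale. With a minimum mean level of 100, 6 of 12 calls in dcIDR, 7 of 8 in KO and 3 of 4 in WT were decreases, and with quantile normalization 8 of 11, 6 of 7 and 4 of 5 were. The shares of all tested genes under these settings are not given, so the counts do not set the members apart from other genes. Psmd6, a lid subunit, had relative slopes of 0.31 in dcIDR, 0.08 in KO and 0.22 in WT, and Psmd14 had 0.25, 0.08 and 0.24.

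Levels also differed between subunits that occur in equal numbers in the particle. Level per kilobase of exon was taken at 60 min (GENCODE M21, all annotated exons of a gene merged). Over the 17 19S subunits taken by name, it ranged in WT from 336.8 for Psmc2 to 2453 for Psmd7, a ratio of 7.28. Over the 14 constitutive 20S subunits it ranged from 236.9 for Psmb5 to 1358 for Psma4, a ratio of 5.73. Medians of level per kilobase of exon in WT were 959.5 for the base ATPases, 633.4 for the other 19S subunits, 660.3 for the alpha ring, 361.5 for the beta ring, 203.8 for activators and inhibitors and 179.5 for assembly chaperones. Psmc5 and Psmc1, both lower in dcIDR, followed Psmd7 directly in that order in WT.

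Per kilobase of the whole gene with its introns the order was another one. Psmb6 was first in WT with 727.6 and Psmd7 second with 686.0. The ratio between highest and lowest was 27.9 over the 17 19S subunits taken by name and 44.4 over the 14 constitutive 20S subunits. Which exons and introns the authors' counting took in is not given in the sources used here, so both lengths are shown. The catalytic subunits Psmb5, Psmb6 and Psmb7 had 239.0, 1137 and 388.9 per kilobase of exon in dcIDR, 298.9, 1051 and 387.5 in KO and 236.9, 968.6 and 320.6 in WT. Psmb10 had 27.1 in dcIDR, 56.9 in KO and 35.4 in WT. Psmb8, with too few reads to compare genotypes, was at 0.82, 0.00 and 0.34.

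**Figure D5:**
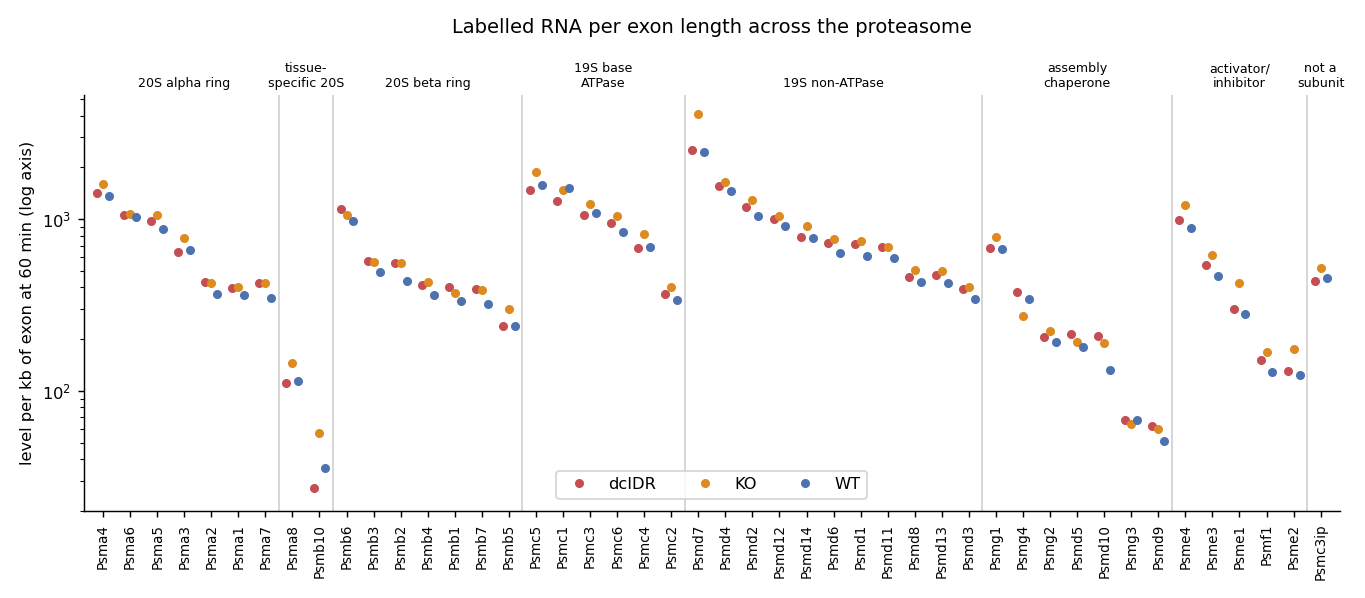
Level per kilobase of exon at 60 min (log axis) of the 46 tested proteasome genes in dcIDR, KO and WT, as the mean of both libraries, ordered by role and by the WT value. In WT, the 19S subunits taken by name span 336.8 to 2453 and constitutive 20S subunits 236.9 to 1358.

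Genes that work with the proteasome were taken from a list of 32, all of which were tested. In dcIDR 8 of the 32 passed, 4 higher and 4 lower, and in KO 7 of the 32, 4 higher and 3 lower, beside 25.1% and 30.1% of all tested genes. With spike-in scaling 1 was higher and 0 lower in dcIDR, where 5.69% and 2.23% of all tested genes were. In KO 8 were higher and 0 lower on that scale, where 21.9% and 2.63% of all tested genes were. The median difference of the list was -0.0031 in dcIDR and 0.03 in KO. Among those that passed in dcIDR, the shuttle factor Ubqln2 on the X chromosome rose by 0.31, Fbxo7, a partner of PI31, by 0.27 and the proteasome adaptor Ecpas by 0.19. Midn, which brings substrates to the proteasome without ubiquitin, fell by 0.30 in dcIDR and Zfand2a by 0.21.

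Among those that passed in KO, the small lid subunit Sem1 on chromosome 6 rose by 0.46 and Ecpas by 0.19. Genome neighbours of the partner genes were not examined. In KO the stress factor Nfe2l2 fell by 0.23, Ubqln4 by 0.18 and Zfand2a by 0.15 relative to the median gene. With spike-in scaling these values turned to 0.08, 0.13 and 0.16, and none passed (limma, adjusted p = 0.745, 0.555 and 0.454). Nfe2l1, the factor that raises proteasome genes, was at -0.10 ± 0.05 in dcIDR and 0.11 ± 0.05 in KO (limma, adjusted p = 0.20 and 0.14), and its activators Ddi2 and Ngly1 were at -0.11 and -0.15 in dcIDR and at 0.05 and 0.21 in KO. Pomp and Akirin2, which serve 20S assembly and nuclear import, were at -0.01 and -0.02 in dcIDR and at 0.02 and -0.12 in KO.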

How the data were processed

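EU-labelled RNA was measured in 24 libraries. HISAT2, SAMtools, Picard and GRCm39 appear, without versions, per the submitters' processing notes. For the read counter, strand and annotation nothing is stated in what was used here, so reads of overlapping genes and near-identical copies are uncertain. The authors deposited, per the file headers and values, log2 ratios of each genotype at 20, 40 and 60 min to 10 min, with both replicates combined and scaled to spike-in reads. The prefixes wt, ko and ki were read as WT, KO and dcIDR, ki being the remaining genotype.

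Each ratio is log2 of spike-in scaled sums of whole reads times 40000, plus 1. Solving for whole numbers returned the reads of each library for 100% of 122679 gene lines by genotype, with a largest relative error of 2.9e-15. In WT at 60 min the split between libraries was unclear for 2832 tested genes, 15 of them members, and the mean entered as 1 value with the other library missing. Which library has which replicate number cannot be read, so A names the one that had more spike-in reads.

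Genes whose mean level reached 10 and with reads in at least 6 libraries were tested with limma 3.58.1 in R 4.3.3 on log2(level + 1), which understates changes of low genes, relative to the median tested gene, with 12 group coefficients, all 24 libraries and Benjamini-Hochberg adjustment over 22448 genes at 0.05. The steps were tested on simulated data. The members, gene lists and tests were chosen with earlier results of these data known. Genes named with values by library were those called against WT, the catalytic subunits and those nearest the threshold. Alternatives were another scale, pseudocount, filter and prior, each library left out and the genes with unclear splits left out. Names, lengths and gene order came from GENCODE M21 and promoters from RefSeq, both of the older build GRCm38, and 51948 of 56941 lines matched a symbol. The deposited table of repeats was not used. Some genes of the lists are not reported here.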

Additional observations from a re-analysis of the deposited data

Results flagged for a closer look

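The difference of Psmd3 between dcIDR and WT changed with labelling time (limma F test over 3 contrasts, adjusted p = 0.0461). It was 0.59 at 10 min, -0.22 at both 20 and 40 min and 0.11 after 60 min on the log2 scale relative to the median gene. The call was lost in 20 of the 24 fits that each left out 1 library, among them each fit without a dcIDR or WT library. Of the 46 members 1 passed (2.17%), where 2.09% of all tested genes did.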

How the results depend on the processing

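Psmd7 and Psme4 in KO and Psmd10 in dcIDR kept their direction and their call under every alternative in which they could be tested, and Psmc1 in dcIDR lost its call only on the deposited spike-in scale (-0.18). Psmd7, Psme4, Psmc1, Psmc3 and Psmc5 have unclear splits, so leaving such genes out removes them. No paired analysis was possible because the replicate number of a library cannot be read from the deposited values. On the spike-in scale Psmc1 and Psmd5 in KO reversed to 0.11 and 0.14, and without the 10 min libraries Psmd3 in dcIDR against KO reversed to -0.0095; the cause was not tested. With no filter, Psmc3 and Psmc5 in dcIDR missed the threshold (limma, adjusted p = 0.19 and 0.071).

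Members called in dcIDR against WT were 5, and 1 on the spike-in scale, 2 with no filter, 9 with limma-trend and 1 of 31 without unclear splits. In KO against WT they were 4, and 2 with no filter and 0 of 31 without unclear splits. In dcIDR against KO they were 11, and 5 on the spike-in scale and 5 without unclear splits. The change of the dcIDR difference with labelling time was called for 1 member, and for 0 on the spike-in scale, with a pseudocount of 10, with no filter, without the 10 min libraries and without unclear splits. Members whose level changed with time in dcIDR were 14, and 46 on the spike-in scale, 29 with a pseudocount of 10, 30 with no filter, 5 without the 10 min libraries and 8 without unclear splits. In KO they were 3, and 46 on the spike-in scale, 6 with a pseudocount of 10, 7 with no filter, 8 with a minimum level of 100, 7 with quantile normalization and 5 with limma-trend. In WT they were 9, and 46 on the spike-in scale, 28 with a pseudocount of 10, 33 with no filter, 4 with a minimum level of 100 and 5 with quantile normalization. Partner genes called in dcIDR were 8, and 1 on the spike-in scale and 3 with no filter. In KO they were 7, and 3 with no filter, 11 with limma-trend and 3 without unclear splits. Except for the spike-in scale, the shares of all tested genes under these other settings are not given, so the counts describe the listed genes alone.

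Leaving out each of the 24 libraries gave 4 to 8 calls in dcIDR against WT, 3 to 5 in KO against WT, 7 to 13 in dcIDR against KO, 0 to 1 for the change of the dcIDR difference with time, 11 to 16, 0 to 4 and 3 to 12 for levels changing with time in dcIDR, KO and WT, and 6 to 9 and 4 to 8 partner genes in dcIDR and KO. Counts moved by over 1.5 times without dcIDR 10 min A (8 in dcIDR against WT), without KO 10 min B or KO 60 min A (7 each in dcIDR against KO), without KO 10 min B or KO 60 min B (0 each for time in KO), without WT 10 min B, WT 40 min A or WT 60 min A (3, 5 and 4 for time in WT) and without KO 10 min A or KO 40 min A (4 partner genes each in KO). Depth limits Psmb8, Psmb9, Psmb11 and Psme2b, which had too few reads to test.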
